A study of Arabidopsis thaliana with 20 samples.

Results

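DNA methylation was compared between nrpe1 plants and wild-type Col-0 plants of Arabidopsis thaliana at the cytosines around 2 deposited sets of nucleosomes, one named for Pol V and one for SWI3B. The comparison uses 4 of the 20 samples of the series, which are whole-genome bisulfite libraries of nrpe1 (2 replicates) and of Col-0 (2 replicates). All were made from leaves of 3.5-week-old plants in the Columbia background, and the labels name the mutant only as nrpe1, without an allele. A further 2 bisulfite libraries, of swi3b, are used where a genotype outside the comparison is needed. The other 14 samples, which are sequenced micrococcal nuclease digests enriched for histone H3, hold no methylation and are not described. In bisulfite sequencing an unmethylated cytosine is read as thymine, so the methylation level of a cytosine is the share of its reads that still show cytosine.

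Pol V is a plant-specific RNA polymerase of RNA-directed DNA methylation, and NRPE1 is its largest subunit. In that pathway short interfering RNAs bound to an ARGONAUTE protein pair with the noncoding RNA that Pol V makes, and the methyltransferase DRM2 is brought to that DNA. DRM2 is best known for methylation in the CHH context, where H is any base but G. MET1 copies CG methylation, and CMT3 maintains CHG methylation, neither of which depends on Pol V to the same degree. SWI3B is a subunit of SWI/SNF complexes, which move nucleosomes. The sources used here do not give the context of any cytosine in the tables.

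For each genotype the tables give 1 level per position for both replicates together, over 1200 bp windows, each a 200 bp nucleosome with flanks of 500 bp. There were 690 Pol V windows and 4089 SWI3B windows. Differences are nrpe1 minus Col-0 in percentage points. With 1 combined profile per genotype there is no replicate error and no test for any value below, and ranges over the 5 chromosomes describe only how even a difference was. Read depth per cytosine is unknown. A level was present in both genotypes at 27255 distinct cytosines of the Pol V windows and at 545333 of the SWI3B windows. These shared cytosines are the ones compared. Of the Pol V windows 111 had no shared cytosine, as had 14 of the SWI3B windows, and the median window held 30 and 143 of them in the Pol V and the SWI3B set.

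In the Pol V windows most methylation was absent in nrpe1. The mean level over the shared cytosines was 0.313% in nrpe1 and 3.03% in Col-0, a difference of -2.72 points, which leaves 10.3% of the Col-0 level. Each of the 5 chromosomes was lower in nrpe1, with differences from -3.24 to -1.93 points. Most cytosines were unmethylated in either genotype: 23016 of the 27255 (84.4%) were at 0 in both. A level above 0 was present at 1097 cytosines in nrpe1 and at 3891 in Col-0. Of the shared cytosines 7.89% were lower in nrpe1 by at least 10 points (2151 cytosines), and 0.235% were higher by as much (64 cytosines).

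In the SWI3B windows there was little methylation to lose. The mean was 0.120% in nrpe1 and 0.210% in Col-0, which leaves 57.4% of the Col-0 level. The difference was -0.089 points, with a chromosome range of -0.154 to -0.0535 points. That share also counts nrpe1 levels at the 533622 cytosines at 0 in Col-0, which averaged 0.0329% in nrpe1. At the 3059 cytosines at 10% or more in Col-0 the means were 13.4% in nrpe1 and 28.8% in Col-0. At 96.7% of the cytosines both genotypes were at 0. Lower by at least 10 points were 0.368% of the cytosines (2007), and higher by as much 0.0981% (535). Over both sets together 0.726% were lower and 0.105% higher. The 2 sets share 1631 cytosines, where their windows overlap. At these the mean was 0.0817% in nrpe1 and 1.77% in Col-0, which leaves 4.61%, against 58.8% at the SWI3B cytosines outside any Pol V window.

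The shared cytosines are not a random draw of those measured. In the Pol V windows 28.5% of the cytosines with a Col-0 level had none in nrpe1, and the Col-0 mean over those 10839 cytosines was 9.35%, against 3.03% over the shared ones. The same held, by less, for cytosines that lack a level in swi3b, where the Col-0 mean was 7.30%, against 4.09% at those that have one. The nrpe1 mean over cytosines without a Col-0 level was 0.281%, close to the 0.313% of the shared ones. Levels were also sparser near the nucleosome. Of the Pol V positions, 1.88% of those under 100 bp from the midpoint had a level in nrpe1 and 2.56% in Col-0, against 5.87% in nrpe1 and 6.75% in Col-0 at 500 to 600 bp. In the SWI3B windows these shares were 13.5% in nrpe1 and 14.8% in Col-0 near the midpoint, and 13.8% in nrpe1 and 15.0% in Col-0 at the edge. With each genotype's cytosines taken whole, shared or not, the Pol V means were 0.308% in nrpe1 and 4.83% in Col-0. The Pol V difference was then -4.52 points, against -2.72 points over the shared cytosines. Why levels are missing, and what part that has in the differences, was not tested.

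Among the Pol V cytosines at 10% or more in Col-0, the nrpe1 level was about the same whatever the Col-0 level. Sorted by the Col-0 level, the 23364 cytosines at 0 in Col-0 averaged 0.0585% in nrpe1, and the 1553 above 0 and under 10% averaged 0.992% in nrpe1 and 4.86% in Col-0. The nrpe1 level was higher in the next class, but no higher in those above it. The 1273 cytosines at 10 to under 30% averaged 2.50% in nrpe1 and 18.1% in Col-0. The 830 cytosines at 30 to under 60% averaged 2.28% in nrpe1 and 42.6% in Col-0. At 60 to under 80% the 212 cytosines averaged 2.35% in nrpe1 and 69.1% in Col-0, and the 23 cytosines at 80 to 100% averaged 1.59% in nrpe1 and 85.7% in Col-0. The share of the Col-0 level that was left thus went down over the 4 classes from 10% upward, with 13.8%, 5.36%, 3.40% and 1.86%. Cytosines chosen for a high Col-0 level tend to be lower in any second measurement, so their swi3b level, where measured, is given beside it. It was 36.1% in the class of 30 to under 60% and 57.7% in the class of 60 to under 80%. As swi3b is a mutant too, these values do not show how far the choice alone lowers a level. When the classes were set by the swi3b level, which neither nrpe1 nor Col-0 entered, the 649 cytosines at 30 to under 60% averaged 2.51% in nrpe1 and 38.3% in Col-0. The 155 at 60 to under 80% averaged 3.42% in nrpe1 and 56.4% in Col-0.

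The SWI3B windows kept far more at their methylated cytosines. The 1983 cytosines at 10 to under 30% in Col-0 averaged 8.09% in nrpe1 and 17.6% in Col-0. The 840 at 30 to under 60% averaged 18.4% in nrpe1 and 42.1% in Col-0, and the 166 at 60 to under 80% averaged 28.7% in nrpe1 and 68.3% in Col-0. In the second of these classes 43.8% of the Col-0 level was left, against 5.36% in the Pol V windows. In the top class the 70 cytosines averaged 66.8% in nrpe1 and 90.5% in Col-0, but 39 of them lie in 1 window, over LIG6, and the other 31 averaged 31.7% in nrpe1 and 85.2% in Col-0. The chromosomes differed widely in the SWI3B classes: the difference at 30 to under 60% ran from -37.1 to -11.9 points, against -41.8 to -38.8 points in the Pol V windows.

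**Figure D1:**
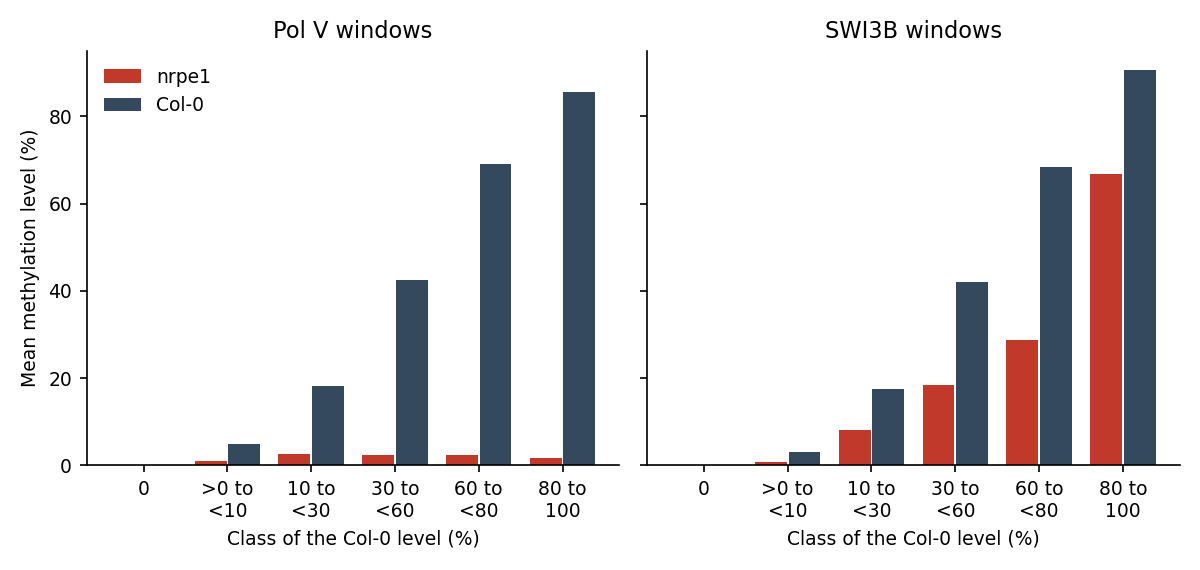
Mean methylation level (%, vertical axis) in nrpe1 (red) and Col-0 (dark blue) for cytosines sorted by their Col-0 level (horizontal axis), in the Pol V windows (left) and the SWI3B windows (right). The nrpe1 bars stay at or under 2.50% in every Pol V class, whereas in the SWI3B windows they climb with the Col-0 level to 66.8% in the top class, where 39 of the 70 cytosines lie in 1 window.

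Counting single cytosines showed the same contrast between the sets. Of the 2338 Pol V cytosines at 10% or more in Col-0, 1828 (78.2%) were at 0 in nrpe1, whereas 11.5% of those with a swi3b level were at 0 in swi3b. Only 162 of the 2338 (6.93%) kept at least 50% of their Col-0 level in nrpe1, and these lay in 48 windows. Of the 3059 such cytosines of the SWI3B windows 44.5% were at 0 in nrpe1 and 17.5% of those measured in swi3b were at 0 there. At least 50% was kept at 1135 of them (37.1%), in 77 windows. These were unevenly spread: 480 of the 1135 lay in 6 windows.

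The mean methylation level of the Pol V windows peaked over the nucleosome in Col-0, and that peak was absent in nrpe1. The 1841 cytosines under 100 bp from the midpoint came from 159 windows, and their Col-0 median was 0. Of these, 461 were at 10% or more in Col-0, and they lay in 48 windows. From 300 bp outward 18761 cytosines came from 542 windows, so the distances do not cover the same windows. Within 50 bp of the midpoint the mean over 917 cytosines was 0.174% in nrpe1 and 12.7% in Col-0. At 50 to 100 bp it was 0.347% in nrpe1 and 9.50% in Col-0, and at 100 to 150 bp 0.0913% in nrpe1 and 4.16% in Col-0. From there outward the Col-0 level lay between 1.93% and 2.84% in every 50 bp bin, while the nrpe1 level was between 0.126% and 0.424%. By broad zone, the share of the Col-0 level that was left was 2.36% under 100 bp, 6.15% at 100 to 300 bp and 16.0% from 300 bp outward. In 50 bp bins it was 1.38% within 50 bp, 3.66% at 50 to 100 bp and 2.19% at 100 to 150 bp. The share thus did not rise evenly outward, and across the edge of the nucleosome, at 100 bp, it was lower outside than inside. In points the difference was -10.8, with a chromosome range of -19.4 to -5.58, under 100 bp, and -1.91, with a range of -2.30 to -1.46, from 300 bp outward. These 2 chromosome ranges do not overlap.

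Both sides of the nucleosome were similar near the midpoint, but less so farther out. In the 100 bp on the lower-coordinate side of the midpoint the mean was 0.345% in nrpe1 and 10.4% in Col-0. In the 100 bp on the other side it was 0.180% in nrpe1 and 11.8% in Col-0. From 300 bp outward, in 100 bp bins, the share left was 18.3% to 21.9% on the lower-coordinate side. On the other side it was 10.2% to 15.8%. With both sides together, the rise over the broad zones also held among cytosines at 10% or more in Col-0. Of these, 1.30% kept at least 50% of their Col-0 level under 100 bp, 3.15% at 100 to 300 bp and 10.6% from 300 bp outward. The share of the Col-0 level left at these cytosines was 1.81%, 3.77% and 12.3% in these 3 zones. With cytosines chosen by a swi3b level of at least 10% instead, it was 1.53%, 4.77% and 14.0%. No such peak was seen in the SWI3B windows, where the mean under 100 bp was 0.110% in nrpe1 and 0.172% in Col-0, and from 300 bp outward 0.124% in nrpe1 and 0.237% in Col-0.

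**Figure D2:**
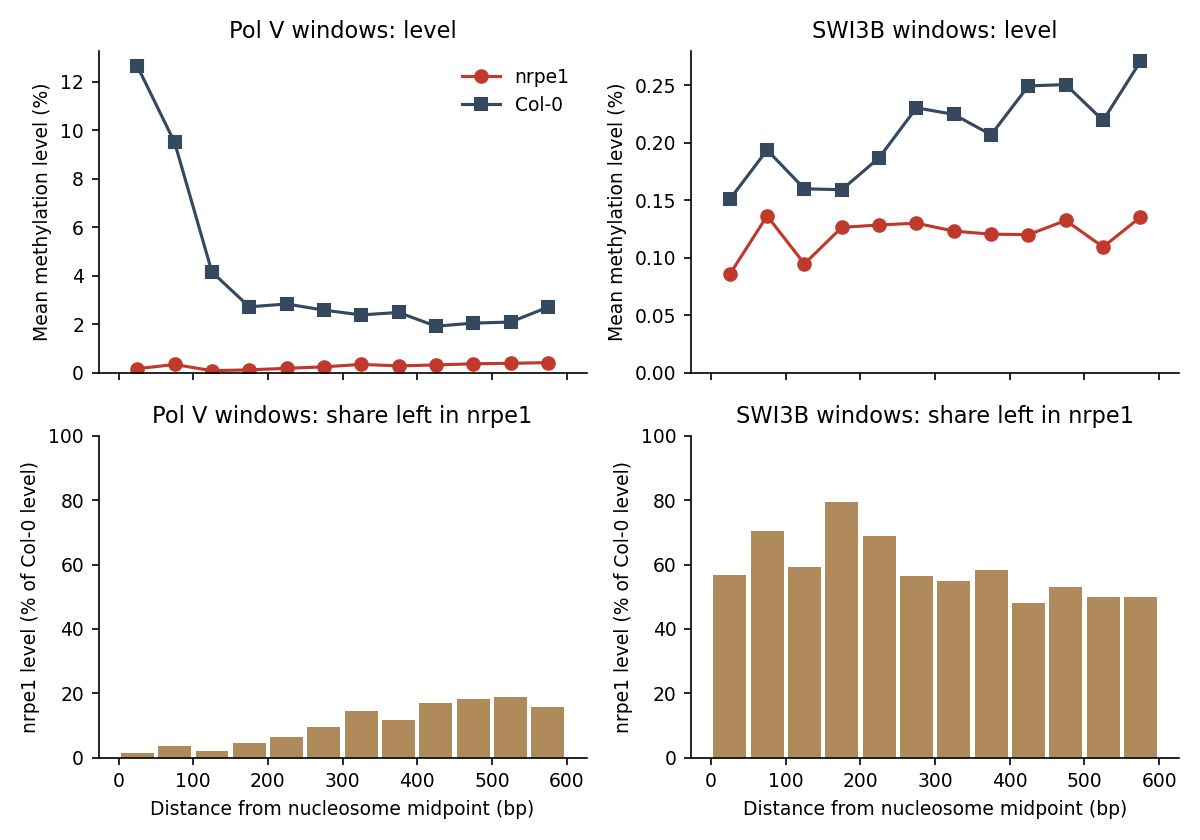
Upper row: mean methylation level (%) in nrpe1 (red circles) and Col-0 (dark squares) in 50 bp bins of distance from the nucleosome midpoint (bp), for Pol V windows (left) and SWI3B windows (right, a smaller vertical scale). Lower row: nrpe1 level as a percentage of the Col-0 level in the same bins. In the Pol V windows the Col-0 curve reaches 12.7% at the midpoint while nrpe1 stays at or under 0.424%.

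The loss in the Pol V windows was largest between genes. RefSeq's TAIR10.1 gene table was used to sort the cytosines. Of the Pol V cytosines, the 10880 between annotated genes averaged 0.501% in nrpe1 and 6.28% in Col-0, and the 15066 within protein-coding genes averaged 0.132% in nrpe1 and 0.567% in Col-0. A further 516 in pseudogenes averaged 1.35% in nrpe1 and 5.46% in Col-0. The share left was 7.97% between genes, 23.2% in protein-coding genes, 24.7% in pseudogenes and 13.8% at the 793 cytosines in RNA genes (0.491% in nrpe1 and 3.55% in Col-0). Between genes the 877 cytosines under 100 bp from the midpoint averaged 0.500% in nrpe1 and 19.4% in Col-0, and those from 300 bp outward 0.582% in nrpe1 and 5.08% in Col-0. In pseudogenes the 19 cytosines under 100 bp, all of 1 window, were at 0 in nrpe1 and averaged 45.0% in Col-0. The difference at genes was uneven over chromosomes, from -1.12 to -0.0652 points, against -7.18 to -4.88 points between genes. In pseudogenes it ran from -26.9 to 0 points, and in RNA genes from -16.6 to 0.167 points. Transposable elements are not annotated in that table, so cytosines between genes include them.

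In the SWI3B windows 472962 of the 545333 cytosines lie in protein-coding genes, with a mean of 0.0667% in nrpe1 and 0.0885% in Col-0. The 54929 between genes averaged 0.221% in nrpe1 and 0.824% in Col-0, which leaves 26.8%. The 11241 in pseudogenes were the most methylated, with 1.92% in nrpe1 and 2.29% in Col-0, which leaves 83.8%. The chromosome range of their difference was -1.33 to 0.0804 points, so the sign was not the same on every chromosome. Cytosines at 10% or more in Col-0 numbered 786 in pseudogenes (27 windows), 906 in protein-coding genes (93 windows) and 1334 between genes (136 windows). Of these, 66.3% in pseudogenes, 44.4% in protein-coding genes and 15.7% between genes kept at least 50% of their Col-0 level in nrpe1. The pseudogene values thus rest on few windows. The share of the Col-0 level left at these cytosines was 79.0% in pseudogenes, 60.3% in protein-coding genes and 19.4% between genes. With cytosines chosen by a swi3b level of at least 10% instead, these shares were 88.8%, 70.1% and 25.1%.

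**Figure D3:**
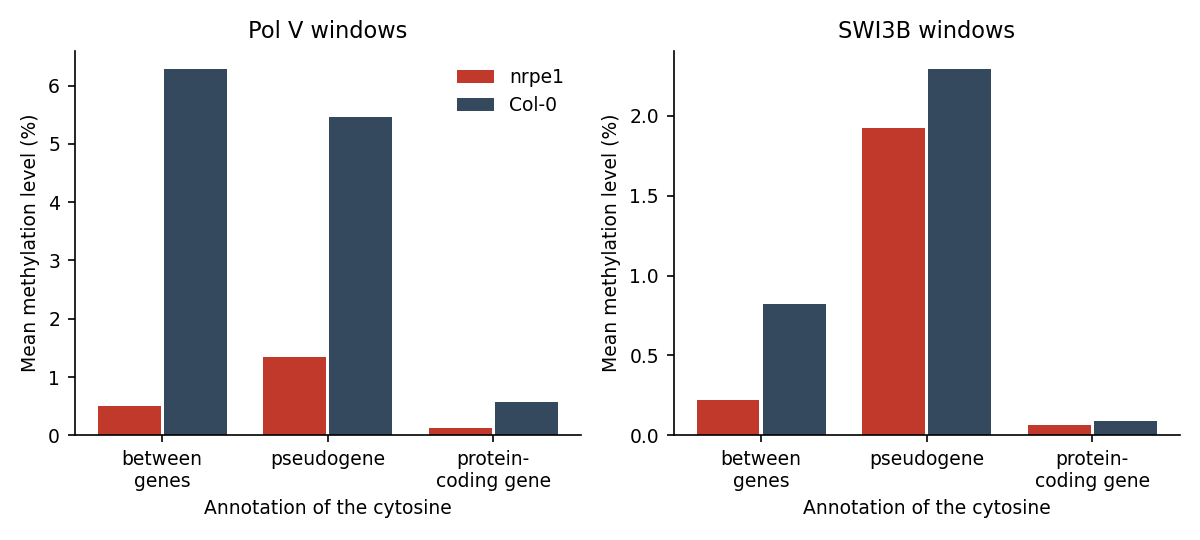
Mean methylation level (%, vertical axis) in nrpe1 (red) and Col-0 (dark blue) at cytosines between genes, in pseudogenes and in protein-coding genes, for Pol V windows (left) and SWI3B windows (right, a smaller vertical scale). Between genes the Pol V windows show 0.501% in nrpe1 and 6.28% in Col-0, whereas in the pseudogenes of the SWI3B windows the bars are close, at 1.92% in nrpe1 and 2.29% in Col-0.

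Cytosines were also sorted by whether they lie in 100 bp regions that the series lists as differentially methylated in other mutants. Such regions were picked for a change in methylation, so a Col-0 level above that of their surroundings says nothing on its own. Pol V windows have 766 cytosines in drm2 CHH regions, which averaged 0.670% in nrpe1 and 33.4% in Col-0. The difference of -32.8 points had a chromosome range of -39.6 to -28.3 points. The 855 cytosines in met1 CHH regions averaged 0.707% in nrpe1 and 30.5% in Col-0. Outside all the listed regions the 25100 remaining cytosines averaged 0.261% in nrpe1 and 1.64% in Col-0.

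The 597 cytosines of the SWI3B windows that lie in drm2 CHH regions also had little methylation in nrpe1. They averaged 1.14% in nrpe1 and 23.9% in Col-0, which leaves 4.75%, against 2.00% in the Pol V windows. The difference was -22.8 points with a chromosome range of -25.3 to -19.9 points, a range that does not overlap that of the Pol V windows. The Col-0 mean was also lower than the 33.4% of the Pol V windows, so the ranges in points do not compare the share lost. The 197 SWI3B cytosines in cmt3 CHG regions, from only 6 windows, averaged 11.0% in nrpe1 and 11.9% in Col-0, which leaves 92.4%. The chromosome range of their difference was -4.78 to 3.52 points, so the sign was not the same on every chromosome. Of these 92 lie in 2 windows, and the other 105 averaged 9.33% in nrpe1 and 8.93% in Col-0. The 34 Pol V cytosines in cmt3 CHG regions, also from 6 windows, averaged 1.25% in nrpe1 and 11.7% in Col-0, which leaves 10.7%. Outside all listed regions the SWI3B mean was 0.106% in nrpe1 and 0.147% in Col-0.

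Every chromosome had a lower Pol V mean in nrpe1, but the loss was uneven along them. Per chromosome, the nrpe1 and Col-0 means were 0.434% and 2.99% on chromosome 1, 0.392% and 3.63% on chromosome 2, and 0.379% and 3.44% on chromosome 3. On chromosome 4 they were 0.187% in nrpe1 and 2.12% in Col-0, and on chromosome 5 0.152% in nrpe1 and 2.99% in Col-0. The share left was thus smallest on chromosome 5 (5.08%) and largest on chromosome 1 (14.5%). In 5 Mb bins, 25 of the 26 with Pol V cytosines were lower in nrpe1, and the last, with 71 cytosines, was at 0 in both genotypes. The largest difference was on chromosome 5 at 10 to 15 Mb, where 299 cytosines averaged 1.06% in nrpe1 and 6.11% in Col-0. On chromosome 1 at 0 to 5 Mb 1763 cytosines averaged 0.113% in nrpe1 and 0.201% in Col-0, which leaves 56.2%, and on chromosome 4 at 15 to 20 Mb 1492 averaged 0.0169% in nrpe1 and 0.152% in Col-0. Both of these bins had little methylation in Col-0. Gene-poor 1 Mb bins, with fewer protein-coding genes than 50% of their chromosome's median bin, numbered 19. Their Pol V cytosines averaged 1.34% in nrpe1 and 6.52% in Col-0, which leaves 20.6%, against 0.244% in nrpe1 and 2.80% in Col-0 in the other bins, which leaves 8.72%. In the SWI3B windows the shares left were 57.9% and 57.3% in gene-poor and other bins, with means of 0.884% in nrpe1 and 1.53% in Col-0 in gene-poor bins.

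Most of the methylation sat in few windows. Of the 508 Pol V windows with at least 10 shared cytosines, 29.1% had a mean lower by at least 1 point in nrpe1 (148 windows) and 0.197% a mean higher by as much (1 window). In 156 windows both genotypes were at 0. The 51 windows with the highest Col-0 means held 54.4% of the summed Col-0 level. A Col-0 mean of at least 10% was present in 81 windows, chosen by that level, and all 81 were lower in nrpe1. Their mean was 1.02% in nrpe1 and 20.2% in Col-0, with medians of 0.260% in nrpe1 and 18.6% in Col-0, and 62 of them were under 1% in nrpe1. The highest of the 81 was at 10.3% in nrpe1, and only 1 kept at least 50% of its Col-0 mean.

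Among the 4045 SWI3B windows with at least 10 shared cytosines, 2.82% were lower by at least 1 point in nrpe1 (114 windows) and 0.222% higher by as much (9 windows). The 404 most methylated windows held 90.1% of the summed Col-0 level. In 27 windows the Col-0 mean was at least 10%, and 25 of these were lower in nrpe1. They averaged 5.75% in nrpe1 and 17.8% in Col-0, and 10 of them kept at least 50%.

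**Figure D4:**
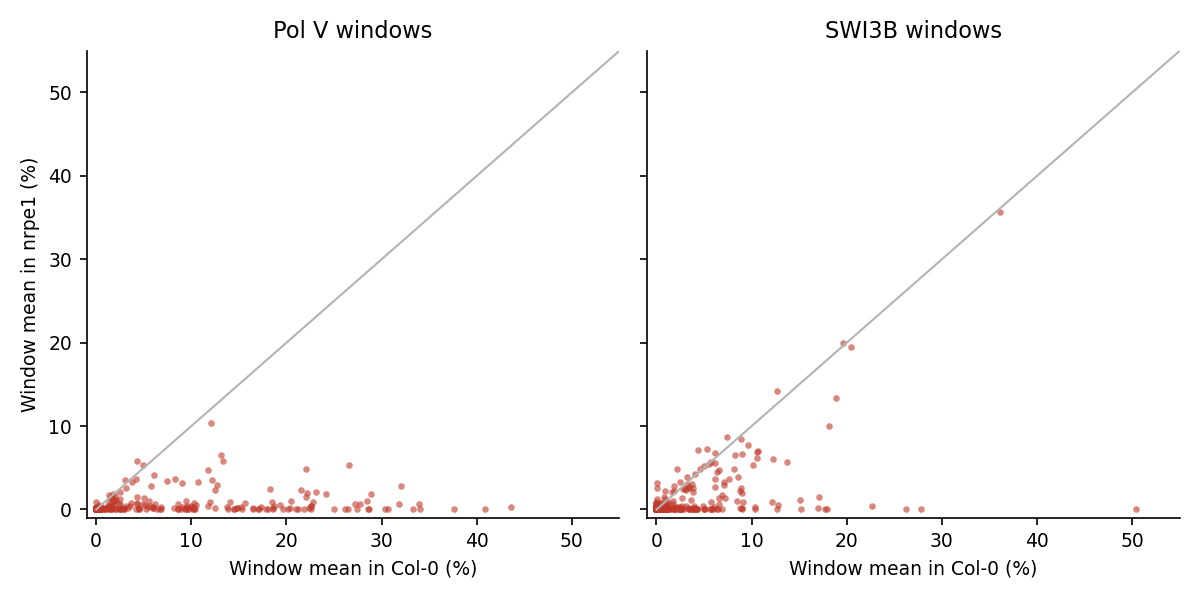
Mean methylation level of each window in nrpe1 (vertical axis, %) against that in Col-0 (horizontal axis, %), for 508 Pol V windows (left) and 4045 SWI3B windows (right) with at least 10 shared cytosines; the grey line marks equal levels. In the left panel the windows with a Col-0 mean of at least 10% lie at or under 10.3% in nrpe1, and in the right panel a few lie on the line, up to 35.6% in nrpe1.

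The windows with the largest losses were methylated over most of their measured cytosines in Col-0 and near 0 in nrpe1. Positions are those of the 200 bp nucleosome in the TAIR10 build, the build listed in the submitters' processing notes. The largest loss was on chromosome 4 at 5611707-5611906, between AT4G08790 and AT4G08800, where 13 shared cytosines averaged 0.256% in nrpe1 and 43.6% in Col-0. The second was on chromosome 4 at 2606357-2606556, where 11 cytosines were at 0 throughout in nrpe1 and averaged 40.8% in Col-0. Both rest on few cytosines, and none of them lies within the nucleosome.

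Better covered were the next 3 windows. On chromosome 5 at 18171292-18171491, between AT5G45020 and AT5G45030, 38 cytosines averaged 0.0346% in nrpe1 and 37.6% in Col-0. The 21 of these inside the nucleosome were at 0 in nrpe1 and averaged 44.9% in Col-0. The highest Col-0 level there, 85% at position 18171369, stood at 0 in nrpe1. On chromosome 2 at 6350242-6350441, between the pseudogenes AT2G14793 and AT2G14796, all 41 cytosines were at 0 in nrpe1, against a mean of 34.1% and a range of 4.17% to 65.4% in Col-0. On chromosome 5 at 20426682-20426881, between AT5G50170 and AT5G50175, 116 cytosines averaged 0.701% in nrpe1 and 33.9% in Col-0, and 107 of them were lower in nrpe1. Its 34 cytosines within the nucleosome averaged 0.113% in nrpe1 and 52.6% in Col-0. The swi3b mean over 115 of the 116 was 33.1%.

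As a window mean, the methylation that stayed in Pol V windows was low, but single cytosines kept more. The 162 Pol V cytosines counted above as having kept their level averaged 21.8% in nrpe1 and 24.0% in Col-0. They were chosen for having kept it, so these averages are a description only. Of the windows with a Col-0 mean of at least 10%, the one with the highest nrpe1 mean lies on chromosome 4 at 5889462-5889661, between AT4G09260 and the pseudogene AT4G09280. Its 17 cytosines averaged 10.3% in nrpe1, 5.64% in swi3b (15 of the 17) and 12.03% in Col-0. On chromosome 2 at 5709352-5709551, 60 cytosines averaged 6.54% in nrpe1 and 13.1% in Col-0, and 15 of them were at 10% or more in nrpe1, against 22 in Col-0. On chromosome 1 at 23932677-23932876, 23 cytosines averaged 5.77% in nrpe1 and 13.4% in Col-0. The 2 remaining windows of this list, on chromosome 4 at 7944142-7944341 next to PRR2, and on chromosome 1 at 6707737-6707936 next to AT1G19390, lost most of their methylation, with 5.29% in nrpe1 and 26.6% in Col-0 at the first and 4.86% in nrpe1 and 22.0% in Col-0 at the second. PRR2 encodes a pinoresinol reductase of lignan synthesis.

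The 5 SWI3B windows with the largest losses were also near 0 in nrpe1, but fewer of their cytosines were methylated in Col-0 in the second, with 53 of 93 above 0, and the fifth, with 15 of 34. On chromosome 4 at 5710798-5710997, next to ARGAH1, an arginase gene, 17 cytosines were at 0 throughout in nrpe1 and averaged 50.4% in Col-0. All 17 lie on 1 side of the nucleosome and inside met1 CHH regions, 9 of them inside drm2 CHH regions. On chromosome 5 at 22841443-22841642, 93 cytosines averaged 0.0207% in nrpe1 and 27.8% in Col-0. The 47 at 10% or more in Col-0 lie 225.5 to 469.5 bp from the midpoint on 1 side, were all at 0 in nrpe1 and averaged 54.4% in Col-0, while the 7 inside the nucleosome were at 0 in both genotypes. On chromosome 3 at 15618213-15618412, next to LTPG2, which encodes a lipid transfer protein, 11 cytosines averaged 0% in nrpe1 and 26.3% in Col-0.

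The fourth window, on chromosome 5 at 19439943-19440142, lies between CYP705A5 and CYP708A2, cytochrome P450 genes of the thalianol pathway. Its 39 cytosines averaged 0.462% in nrpe1 and 22.7% in Col-0, and all 39 also lie in a Pol V window. The fifth, on chromosome 5 at 10214523-10214722, had 34 cytosines that were at 0 in nrpe1 and averaged 17.9% in Col-0. At 3 of these 5 windows, those next to ARGAH1 and LTPG2 and the fifth, the swi3b mean was under 50% of that in Col-0. It was 20.3% over 13 of the 17 cytosines, 8.54% over 9 of the 11 and 3.42% over 26 of the 34. The Col-0 means are over all the shared cytosines, so they do not cover the same cytosines as the swi3b means. What part the cytosines without a swi3b level have in this was not tested.

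**Figure D5:**
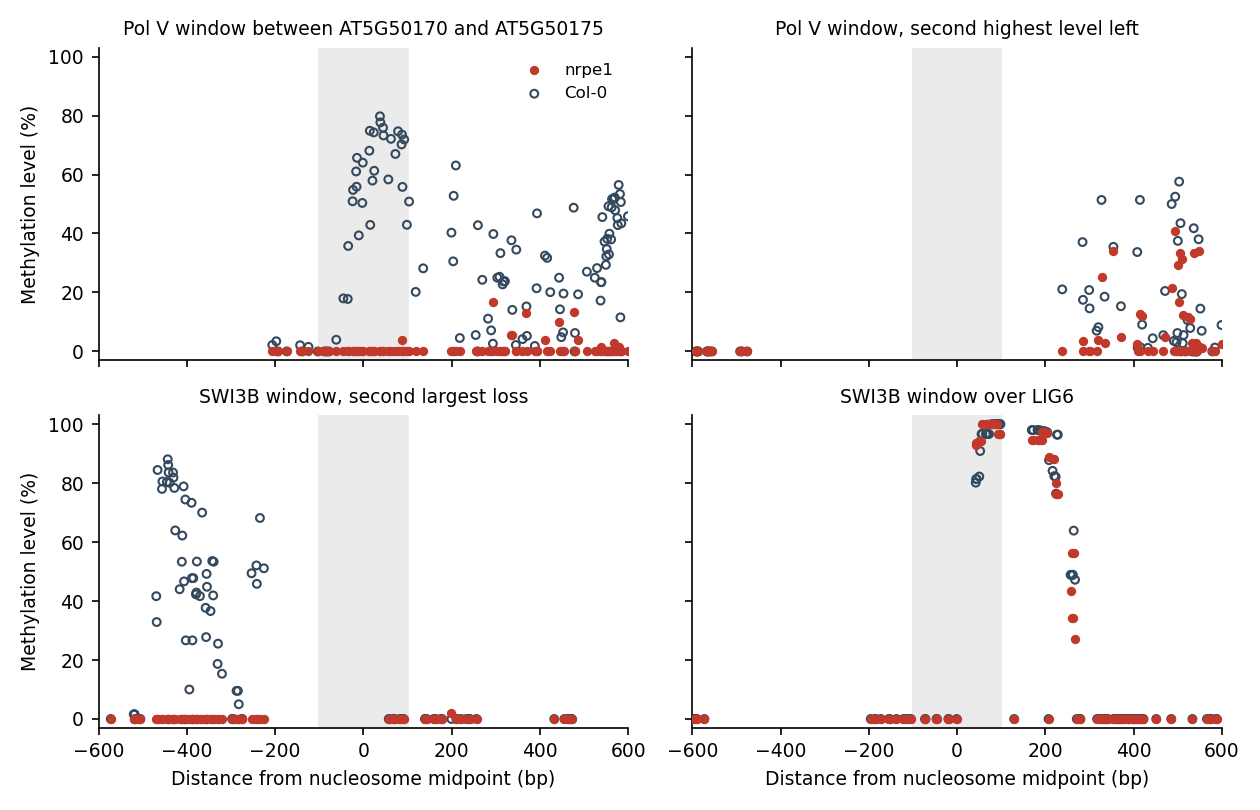
Methylation level (%) of each shared cytosine in nrpe1 (red dots) and Col-0 (open circles) against its distance from the nucleosome midpoint (bp), with the 200 bp nucleosome shaded. The 116 cytosines of the Pol V window between AT5G50170 and AT5G50175 (upper left) lie near 0 in nrpe1, the chromosome 2 Pol V window (upper right) keeps 6.54% in nrpe1 and has 13.1% in Col-0, the chromosome 5 SWI3B window (lower left) has its Col-0 methylation outside the nucleosome, and over LIG6 (lower right) the 2 genotypes overlie each other.

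The SWI3B windows with the highest nrpe1 means, named here after their values were seen, lie over genes and pseudogenes and kept most of their level. Ranking by the nrpe1 mean itself favours windows that kept it, so their levels are a description only. Of the 27 SWI3B windows with a Col-0 mean of at least 10%, 13 were under 1% in nrpe1. LIG6, which encodes a DNA ligase of plants, overlaps the nucleosome on chromosome 1 at 24884913-24885112. Its 113 cytosines averaged 35.6% in nrpe1, 35.0% in swi3b (106 of the 113) and 36.1% in Col-0. The methylation is a block, with 37 cytosines at 80% or more in nrpe1 and 39 in Col-0, while 67 of the 113 were at 0 in both genotypes. Of the 46 cytosines above 0 in Col-0, 5 had exactly the same level in nrpe1, and 26 of the 113 were lower and 15 higher in nrpe1. The 46 cytosines at 10% or more in Col-0 lie 42.5 to 267.5 bp from the midpoint on 1 side and averaged 87.5% in nrpe1 and 88.7% in Col-0.

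The next 4 were methylated more loosely. Over the pseudogene AT1G25784, on chromosome 1 at 9009843-9010042, 155 cytosines averaged 20.002% in nrpe1 and 19.6% in Col-0, with 79 lower and 54 higher in nrpe1. Over the pseudogene AT1G31570, on chromosome 1 at 11303193-11303392, 259 cytosines averaged 19.5% in nrpe1 and 20.4% in Col-0. On chromosome 1 at 21750913-21751112, over AT1G58602 and the pseudogene AT1G58561, 269 cytosines averaged 14.2% in nrpe1 and 12.7% in Col-0, and 56 of them lie in cmt3 CHG regions. Over the pseudogene AT2G15060, on chromosome 2 at 6527538-6527737, 272 cytosines averaged 13.4% in nrpe1 and 18.9% in Col-0. Single cytosines of these windows moved in both directions by 10 points or more, so equal means do not show that each cytosine was equal.

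Gains were few and small. In the Pol V windows the 64 cytosines higher by at least 10 points lay in 33 windows and averaged 21.6% in nrpe1 and 6.48% in Col-0, and 29 of them were at 0 in Col-0. They were chosen for being higher, so the averages are a description only. The 1 Pol V window with a mean higher by at least 1 point lies on chromosome 2 at 6199722-6199921, next to SRP2, a gene of the serpin protease inhibitor family. Its 41 cytosines averaged 5.81% in nrpe1 and 4.26% in Col-0.

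In the SWI3B windows the 535 cytosines higher by as much lay in 143 windows, and 231 of them were at 0 in Col-0. The largest gain of a window was over ARF13, a gene of the auxin response factor family, on chromosome 1 at 12444053-12444252, where 63 cytosines averaged 3.22% in nrpe1, 1.77% in swi3b (50 of the 63) and 0.102% in Col-0. There 23 cytosines were higher in nrpe1 and none was lower. On chromosome 5 at 24016753-24016952, between AT5G59613 and AT5G59616, 156 cytosines averaged 2.63% in nrpe1 and 0.0779% in Col-0, while the 149 measured in swi3b were at 0 there. The other 3 named gains, on chromosome 4 at 4217818-4218017, on chromosome 5 at 10307953-10308152 and on chromosome 2 at 7784093-7784292, averaged 7.15%, 4.90% and 7.25% in nrpe1, and 4.33%, 2.16% and 5.29% in Col-0, so each was already methylated in Col-0.

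The direction of change in nrpe1 was one-sided compared with swi3b. At the 24065 Pol V cytosines with a level in all 3 genotypes, 1819 (7.56%) were lower and 53 (0.220%) higher than in Col-0 by at least 10 points in nrpe1, whereas 776 (3.22%) were lower and 594 (2.47%) higher in swi3b. The means over these cytosines were 0.304% in nrpe1, 2.70% in swi3b and 2.91% in Col-0. At the 509975 such SWI3B cytosines 0.323% were lower and 0.0896% higher in nrpe1, and 0.221% lower and 0.168% higher in swi3b. Both contrasts use the same Col-0 profile, so they are not independent.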

How the data were processed

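Whole-genome bisulfite libraries of nrpe1, swi3b and Col-0 leaves (2 replicates each, read from both ends with 100 bp reads, per the labels) were compared. The deposited methylation tables hold a fraction from 0 to 1 per position, or no value, combined by the authors over both replicates of a genotype. No column of a single replicate was used. Hence the spread between replicates, read depth and precision per cytosine are unknown. Whether the replicates were separate plants is not stated. The submitters' processing notes list Bismark, Bowtie2, methylKit, Picard and the TAIR10 build, without role or order. The caller's coverage minimum and cytosine context are not given in the sources used here. Per the labels, the H3 tables hold read counts, which were deposited as coverage per base (a signal); here only their region names were used, to place 100 bp differentially methylated regions. The deposited nucleosome lists were not used.

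Fractions were multiplied by 100. Each distinct position was counted once per set, in the first window that held it, and its distance was taken from that window's nucleosome. Counts of windows by distance follow that choice. With every recurrence counted, the Pol V difference under 100 bp was -11.5 points, against -10.8. A position recurring in overlapping windows always had the same value (53211 recurrences in nrpe1 and 58846 in Col-0, 0 different). Window starts were read as 0-based and positions are given 1-based. A change is a difference of at least 10 percentage points. Windows needed 10 shared cytosines. The planned split by context was not run, since no genome was used, so the planned sequences are not shown. Genes and pseudogenes came from RefSeq's TAIR10.1 table, used for names, neighbours and overlap only. The Col-0 level inside and outside protein-coding genes differed most without a shift of that table (0.567% and 6.07% in the Pol V windows, against 1.11% and 4.36% with a shift of 500 bp to one side).

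Named windows were the 5 largest losses in each set, the 5 highest nrpe1 means among Pol V windows with a Col-0 mean of at least 10%, and up to 5 gains of at least 1 point, skipping overlaps. The SWI3B windows with the highest nrpe1 means were added after their values were seen. Members, lists and comparisons were chosen with earlier results of these data known. The scripts were tested on simulated data. Tools were Python 3.11.15, pandas 2.3.3, numpy 2.4.6 and matplotlib 3.10.9. Alternatives were other weights, widths, thresholds, classes, sets of cytosines and left-out windows or chromosomes.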

Additional observations from a re-analysis of the deposited data

How the results depend on the processing

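Of 133 alternative values 91 stayed close to the reported ones: differences kept their sign and moved by at most 1 SD over chromosomes, and shares of cytosines and counts of windows moved by at most 1.5 times. These 91 include the ratio of the mean levels, 0.103 in the Pol V and 0.574 in the SWI3B windows, for which only the direction can be compared. With weight per window in place of per cytosine, the mean difference was -3.68 points in the Pol V windows and -0.158 in the SWI3B windows. With each genotype's cytosines taken whole, shared or not, it was -4.52 and -0.144 points in these sets. In the Pol V windows it was -11.6 points over the central 150 bp and -1.91 over the outermost 300 bp on each side. With a call at 25 points, 4.33% of the Pol V cytosines were lower and 0.0257% higher in nrpe1, and 0.132% of the SWI3B cytosines lower and 0.0103% higher. With a call at 5 points, 0.646% of the Pol V cytosines were higher, and 0.662% of the SWI3B cytosines were lower and 0.278% higher.

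With classes set by the swi3b level, the Pol V differences from the class at 0 upward were -0.241, -5.82, -16.9, -35.8, -52.9 and -72.1 points, and the first 3 SWI3B ones were -0.0139, -0.958 and -7.59. The class at 0 thus turned round in both sets, since a cytosine at 0 in Col-0 cannot be lower in nrpe1. With classes set by the nrpe1 level, the first 5 Pol V differences were -2.54, -7.81, -5.73, 2.39 and 31.7 points, and the 6 SWI3B ones -0.105, 0.723, 0.843, 2.63, 6.57 and 4.08, where the choice of high nrpe1 levels itself favours a positive sign. Without the 10 windows of the highest Col-0 mean, the SWI3B class of 80 to 100% differed by -62.9 points; this alternative was added after the data were seen.

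In windows with a Col-0 mean of at least 1%, the difference under 100 bp was -29.7 points (Pol V) and -2.17 (SWI3B), and from 300 bp outward -6.30 and -3.49. As a mean over windows it was -2.94 points from 300 bp outward in the Pol V set, and -0.111 under 100 bp and -0.190 from 300 bp outward in the SWI3B set. In protein-coding genes of the SWI3B windows it was -0.038 points as a mean over windows. The causes of these shifts were not tested. No paired analysis was possible because each table holds both replicates of a genotype combined. The split by context was not run. With read depth unknown, no limit of detection can be given for a level of 0.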
